A study of Mus musculus with 7 samples.

Results

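The dystrophin-glycoprotein complex was described from 8 of the 26607 genes listed in the RNA-seq files, chosen by symbol: Dmd, Utrn, Dag1, Sgca, Sgcb, Sgcd, Sspn and Dtna. All 8 were found and tested. The libraries came from C2C12, an established line of mouse myoblasts that can be made to fuse into multinucleated myotubes. There were 3 control libraries without treatment, carrying replicate numbers 1, 3 and 4, and 4 libraries of myotubes given electrical pulse stimulation (EPS), carrying replicate numbers 1 to 4. EPS, which makes cultured myotubes contract, started on day 3 of differentiation, ran for 24 h, and the cells then rested for 1 h. All cultures were of this single line, the labels name no genetic change in either group, and the comparison asks how stimulation alters transcript levels. The sources do not state that each library came from a separate culture, so p-values measure the spread between these libraries, which may be technical.

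The complex spans the muscle cell membrane and ties the actin cytoskeleton to the basement membrane, which protects the membrane during contraction. Dystrophin or its paralog utrophin lies on the inner face, dystroglycan crosses the membrane and binds laminin outside, the sarcoglycans and sarcospan steady dystroglycan, and dystrobrevin forms part of a signaling scaffold on dystrophin. Loss of dystrophin causes Duchenne muscular dystrophy, and loss of a sarcoglycan causes a limb-girdle muscular dystrophy.

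The values are CPM, the reads of a gene scaled to the same total in every library. Recovered whole reads summed to between 16616917 and 22120641 per library, and a member had between 293 and 15095 reads in a library, so that counting error was at most 5.84% of a member's level. PCR copies are included in these reads, and such shares and limits speak of counting error alone. Control replicate 4 stood apart, with 359 genes at 1 to 5 reads where the rest had 2670 to 3181, and the members' values that it moved most are also given without it. Between the groups, 269 of 19144 genes (1.41%) passed both an unadjusted P of 0.01 and a 2-fold difference in limma, and 27 (0.141%) had an adjusted p under 0.05. Genes with a mean of at least 1 CPM had a median log2 fold change of 0.10 in favor of EPS, which became -0.0048 after median-of-ratios scaling.

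None of the 8 members passed the test for a difference between EPS and control after adjustment over all genes. In limma, 0 had an adjusted p under 0.05, with adjusted p-values from 0.356 to 0.886, and 0 passed P under 0.01 and 2-fold. At an unadjusted P under 0.05 there were 2 in limma, against 11.6% of all genes. They were Sgcd, higher in the EPS libraries as were 8.4% of all genes at this P, and Sgca, lower as were 3.21%. At this P there was 1 member, Sgca, in edgeR, against 11.6% of all genes, and the same 1 in DESeq2, against 10.6%. After adjustment there was 0 in edgeR, against 1.51% of all genes, and 0 in DESeq2, against 2.6%. The EPS and control libraries did not overlap in 1 member, Sgcd, against 10.6% of all genes. Log2 fold changes ran from -0.58 to 0.43 with a median of 0.13, and 5 were above and 3 below 0. The median was 0.041 over all tested genes and 0.10 over those with a mean of at least 1 CPM, as all members had. After median-of-ratios scaling 4 members were above and 4 below 0, with a median of 0.021, and without control replicate 4 or EPS replicate 3 the split was the same, with medians of 0.0039 and -0.00099. The 95% interval lay wholly within 2-fold in either direction for 7 of the 8 members, and for the other, Sgca, it reached -1.12. In bulk libraries such as these, fewer cells of a kind and less RNA per cell cannot be told apart.

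**Figure D1:**
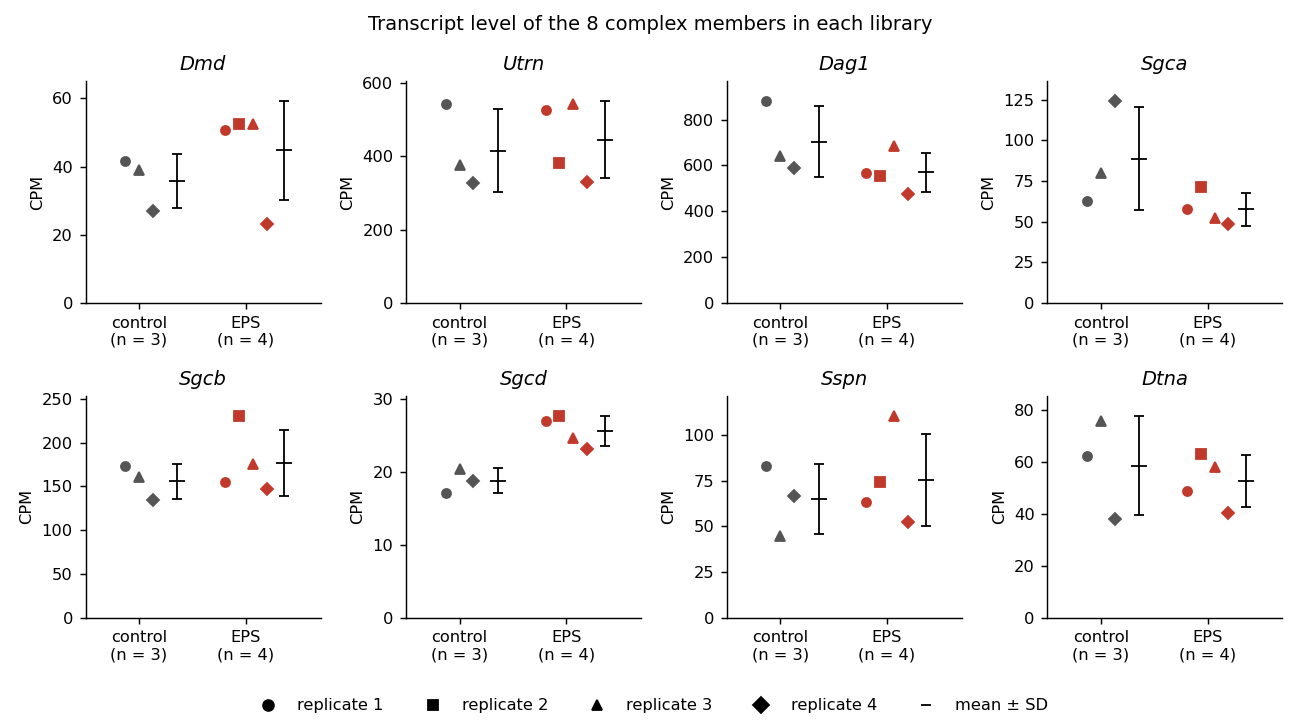
CPM of each member (vertical axes, starting at 0) in the control (grey) and EPS (red) libraries, 1 symbol per library, with the mean ± SD of each group beside them. Sgcd is the only panel in which all EPS libraries lie above all control libraries, and Dmd in EPS replicate 4, at 23.2 CPM, lies below every control library.

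Dystrophin (Dmd, ENSMUSG00000045103.17), which binds actin at one end and dystroglycan at the other, lies on chromosome X of GRCm38 from 82948870 to 85206141. It was at 41.5, 39.0 and 26.9 CPM in control replicates 1, 3 and 4, and at 50.9, 52.6, 52.5 and 23.2 CPM in EPS replicates 1 to 4. In 3 EPS libraries Dmd was above every control library, while EPS replicate 4 was below all of them. The mean was 35.8 ± 7.84 CPM (SD, n = 3) without and 44.8 ± 14.4 CPM (SD, n = 4) with EPS, and the log2 fold change 0.27, with a 95% interval from -0.43 to 0.97 (adjusted p = 0.789 from limma). Without EPS replicate 4 the log2 fold change was 0.55 and the adjusted p 0.475, and without control replicate 4 it was 0.078.

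Utrophin (Utrn, ENSMUSG00000019820.11), the paralog that takes the place of dystrophin in developing muscle and at the neuromuscular junction, lies on chromosome 10 from 12382188 to 12869365. It was at 543, 377 and 328 CPM in control replicates 1, 3 and 4, and at 527, 383, 543 and 331 CPM in EPS replicates 1 to 4. Each group held both high and low libraries, and every EPS value lay within the control range. The log2 fold change was 0.10, with a 95% interval from -0.48 to 0.69 (adjusted p = 0.886 from limma). It turned to -0.011 after median-of-ratios scaling, to -0.0054 in DESeq2 and to -0.052 without control replicate 4.

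Levels of different genes were compared as CPM per kb of the longest transcript in GENCODE M21, which is 12382 nt for Utrn and 14910 nt for Dmd. On this scale Utrn exceeded Dmd by 15.7-, 11.6- and 14.7-fold in control replicates 1, 3 and 4, and by 12.5-, 8.77-, 12.4- and 17.2-fold in EPS replicates 1 to 4. Utrn was thus the far more abundant of these paralogs in every library. The size of this gap is uncertain, because the annotation holds 14 transcripts of Dmd and 13 of Utrn and the files give 1 value per gene. The difference between groups in the log2 ratio, which depends neither on length nor on library scaling, was -0.17 (exact two-sided permutation test over 35 splits, p = 0.571), smaller than the SD of either group, 0.228 in the control and 0.397 in the EPS group. It was -0.0040 without EPS replicate 2 and -0.33 without EPS replicate 4.

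**Figure D2:**
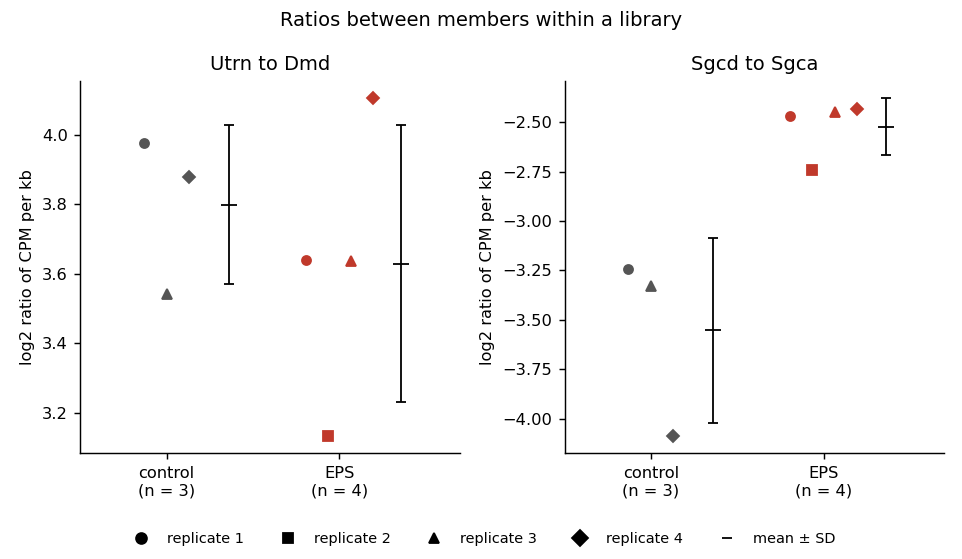
Log2 ratio of CPM per kb between members within each library (vertical axes), for Utrn to Dmd and for Sgcd to Sgca, with 1 symbol per library and the mean ± SD of each group. The Utrn to Dmd ratios of the groups overlap. The Sgcd to Sgca ratios of all EPS libraries, at -2.74 and above, lie over those of all control libraries, at -3.24 and below. The Sgcd to Sgca ratio was chosen after the values had been seen, from the members with the highest and lowest log2 fold changes.

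Dystroglycan (Dag1, ENSMUSG00000039952.15), which is cut into an alpha subunit that binds laminin and a beta subunit that crosses the membrane, lies on chromosome 9 from 108204634 to 108263958. It was at 880.0, 642 and 588 CPM in control replicates 1, 3 and 4, and at 567, 554, 683 and 473 CPM in EPS replicates 1 to 4. All 4 EPS libraries were below the control mean and 3 were below every control library, but EPS replicate 3 was above control replicates 3 and 4. The group means of 703 ± 156 CPM (SD, n = 3) and 569 ± 86.3 CPM (SD, n = 4) gave a log2 fold change for Dag1 of -0.29, with a 95% interval from -0.82 to 0.23 (adjusted p = 0.674 from limma), and of -0.12 without control replicate 1.

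The sarcoglycans are single-pass membrane proteins, and in muscle several of them, the alpha, beta and delta subunits included, assemble as a unit beside dystroglycan. Delta-sarcoglycan (Sgcd, ENSMUSG00000020354.15), which forms a core with beta-sarcoglycan, lies on chromosome 11 from 46896253 to 47988969. It was at 17.1, 20.5 and 18.8 CPM in control replicates 1, 3 and 4, and at 27.0, 27.6, 24.7 and 23.2 CPM in EPS replicates 1 to 4. No control library reached the level of any EPS library (exact two-sided permutation test, p = 0.0286, which no split of 3 against 4 libraries can go below), a separation in this direction seen in 7.76% of all genes. The means were 18.8 ± 1.69 CPM (SD, n = 3) and 25.6 ± 2.06 CPM (SD, n = 4). Sgcd was thus 1.35-fold higher, with a 95% interval from 1.04 to 1.74, and its log2 fold change was 0.43 (SE 0.16). The difference had an unadjusted P of 0.0285 and did not pass the adjustment (adjusted p = 0.356 from limma). Its direction held in every alternative and with each library left out, at log2 fold changes from 0.30 to 0.49, and it was 0.43 without control replicate 4. On other scalings the unadjusted P was over 0.05, at 0.0822 after quantile normalization, 0.0715 after median-of-ratios scaling, 0.131 in edgeR and 0.0879 in DESeq2, and it was 0.0651 without control replicate 1.

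Alpha-sarcoglycan (Sgca, ENSMUSG00000001508.15), the subunit that is restricted to striated muscle, lies on the same chromosome from 94962791 to 94976327. It was at 62.5, 79.7 and 124 CPM in control replicates 1, 3 and 4, and at 57.7, 71.4, 52.3 and 48.4 CPM in EPS replicates 1 to 4. In 3 EPS libraries Sgca was below every control library, whereas EPS replicate 2 was above control replicate 1, and control replicate 4 was far above all other libraries. The mean was 88.7 ± 31.7 CPM (SD, n = 3) without and 57.4 ± 10.1 CPM (SD, n = 4) with EPS, and the log2 fold change -0.58 (SE 0.24). Its unadjusted P was 0.0410, its adjusted p 0.401 from limma, and its exact two-sided permutation p 0.0857. Without control replicate 4 the log2 fold change was -0.31, with an unadjusted P of 0.154. With a single library left out the P was over 0.05 in 5 of 7 cases, at 0.0815 without control replicate 3, 0.0873 without EPS replicate 1, 0.107 without EPS replicate 3 and 0.120 without EPS replicate 4. On the recovered reads of all 7 libraries it was -0.74 in edgeR and -0.75 in DESeq2, with unadjusted P of 0.00491 and 0.00499 and adjusted p of 0.145 and 0.101. Control replicate 4 was also the highest library for Cav3 at 138 CPM and Myog at 1794 CPM. Other muscle genes went the other way. It was the lowest library for Tmem8c at 460 CPM and the lowest control library for Myh4 at 363 CPM and Acta1 at 2774 CPM. All these genes are named here after their values were seen. What sets this library apart was not tested.

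Beta-sarcoglycan (Sgcb, ENSMUSG00000029156.11), on chromosome 5 from 73632749 to 73647790, was at 173, 161 and 134 CPM in control replicates 1, 3 and 4, and at 156, 230.5, 175 and 147 CPM in EPS replicates 1 to 4. The groups overlapped, with EPS replicate 2 highest and control replicate 4 lowest. The log2 fold change was 0.16, with a 95% interval from -0.27 to 0.60 (adjusted p = 0.789 from limma). It was 0.031 without EPS replicate 2, 0.060 without control replicate 4 and 0.052 after median-of-ratios scaling.

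Since Sgcd and Sgca lay on opposite sides of 0, their ratio within each library was taken after the values had been seen, and is given without a test. Per kb, Sgcd was at 0.106, 0.0994 and 0.0587 of the level of Sgca in control replicates 1, 3 and 4, and at 0.181, 0.150, 0.183 and 0.185 of it in EPS replicates 1 to 4. The ratio was higher in all EPS libraries than in all control libraries. These 2 were the members with the highest and lowest log2 fold changes, a choice that favors such a gap. How often other pairs of genes separate in this way was not measured. The mean log2 ratio differed by 1.03, from -3.55 ± 0.467 (SD, n = 3) to -2.52 ± 0.145 (SD, n = 4), and by 0.76 without control replicate 4. The ratio of Sgcd to Sgcb overlapped between groups, with log2 values from -3.58 to -3.07 in the control and from -3.29 to -2.76 in EPS libraries. That of Sgcb to Sgca also overlapped, from -1.02 to 0.336 in the control and from 0.297 to 0.610 in the EPS libraries. Its mean log2 ratio differed by 0.75, and by 0.37 without control replicate 4.

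The promoters of Dmd, Sgca and Sgcd are shown because Sgca and Sgcd were the members at an unadjusted P under 0.05 and Dmd gives the complex its name. Each run is the 250 bases before a RefSeq transcript start on GRCm38.p6, 5′ to 3′ on the strand of the gene. Capitals mark matches to the E-box CANNTG, which myogenic factors bind, and to the MEF2 and CArG consensus sites, bound by MEF2 factors and serum response factor. Each pattern is its own reverse complement, so that both strands were searched at once, and no matches of different motifs overlapped. The windows are chrX:82948620-82948869 (plus strand), chr11:94976328-94976577 (minus strand) and chr11:47379326-47379575 (minus strand).
Dmd: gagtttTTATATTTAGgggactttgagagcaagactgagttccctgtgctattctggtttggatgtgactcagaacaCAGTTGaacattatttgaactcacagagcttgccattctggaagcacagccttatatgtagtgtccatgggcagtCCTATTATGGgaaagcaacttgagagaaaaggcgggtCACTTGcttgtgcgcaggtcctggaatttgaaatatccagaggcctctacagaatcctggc
Sgca: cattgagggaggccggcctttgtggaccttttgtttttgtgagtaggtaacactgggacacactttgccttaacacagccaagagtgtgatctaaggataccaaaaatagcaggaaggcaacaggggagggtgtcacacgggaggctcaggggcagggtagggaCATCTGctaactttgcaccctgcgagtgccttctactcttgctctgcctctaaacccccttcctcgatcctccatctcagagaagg
Sgcd: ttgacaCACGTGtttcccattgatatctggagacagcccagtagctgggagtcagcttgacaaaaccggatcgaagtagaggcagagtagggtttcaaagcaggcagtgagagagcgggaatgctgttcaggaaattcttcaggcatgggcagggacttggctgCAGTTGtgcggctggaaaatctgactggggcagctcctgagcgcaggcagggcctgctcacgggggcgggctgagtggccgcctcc
The Dmd window held 2 E-boxes, 1 MEF2 match and 1 CArG match, the Sgca window 1 E-box and the Sgcd window 2 E-boxes. Over all 32851 windows of this length in the table, 66.2% held an E-box, 2.92% a MEF2 match and 1.47% a CArG match. A match describes the sequence and not a bound site, and which start the libraries used was not measured. RefSeq holds a further Dmd start within the gene, not shown, and the Sgcd start shown lies inside the annotated gene.

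Sarcospan (Sspn, ENSMUSG00000030255.13), a small protein with several membrane spans that joins the sarcoglycans, lies on chromosome 6 from 145931641 to 145965223. It was at 83.0, 44.8 and 66.6 CPM in control replicates 1, 3 and 4, and at 63.6, 74.5, 110.5 and 52.4 CPM in EPS replicates 1 to 4. The highest library was EPS replicate 3 and the lowest control replicate 3, and the rest were mixed. The log2 fold change was 0.20, with a 95% interval from -0.44 to 0.85 (adjusted p = 0.817 from limma), and it was -0.038 without control replicate 3 and 0.00025 without EPS replicate 3.

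Alpha-dystrobrevin (Dtna, ENSMUSG00000024302.16), a scaffold protein that binds dystrophin, lies on chromosome 18 from 23415135 to 23659715. It was at 62.1, 75.6 and 38.0 CPM in control replicates 1, 3 and 4, and at 48.9, 63.1, 57.9 and 40.3 CPM in EPS replicates 1 to 4. The EPS libraries lay within the range of the control. The log2 fold change was -0.12, with a 95% interval from -0.69 to 0.45 (adjusted p = 0.869 from limma), and it was 0.089 without control replicate 3, -0.0013 without EPS replicate 4 and -0.40 without control replicate 4.

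Among the members, Dag1 had the highest level per kb in the control, 124 ± 27.5 CPM per kb (SD, n = 3), and Dmd the lowest, 2.40 ± 0.526. Between them stood Sgca at 51.5 ± 18.4, Sgcb at 41.2 ± 5.29, Utrn at 33.6 ± 9.09, Sspn at 14.4 ± 4.25, Dtna at 9.31 ± 3.03 and Sgcd at 4.22 ± 0.379 CPM per kb. The ranges over all 7 libraries were separate between Dag1 and Sgca, between Utrn and Sspn, and between Sgcd and Dmd. They overlapped between the other neighbors in this order. Sgca was above Sgcb in 2 of 7 libraries, Sgcb was above Utrn in 6, Sspn was above Dtna in 6, and Dtna was above Sgcd in 7. The place of Sgca rested on control replicate 4, without which the control means were 41.2 CPM per kb for Sgca and 44.2 for Sgcb. In the EPS group Sgca, at 33.3 ± 5.83 CPM per kb (SD, n = 4), was below the mean of Sgcb, 46.7 ± 9.94, and also below that of Utrn.

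The members varied between libraries by more than counting error. The SD within a group was between 8.03% and 35.7% of the mean, lowest for Sgcd in the EPS group and highest for Sgca in the control. Control replicate 4 and EPS replicate 4 each had 1 member above its mean over all libraries, Sgca in the former and Sgcd in the latter. EPS replicate 3 had 7 members above their means, and control replicate 1 and EPS replicate 2 had 6 each. The number of high members thus differed more among libraries of a group than between the groups.

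**Figure D3:**
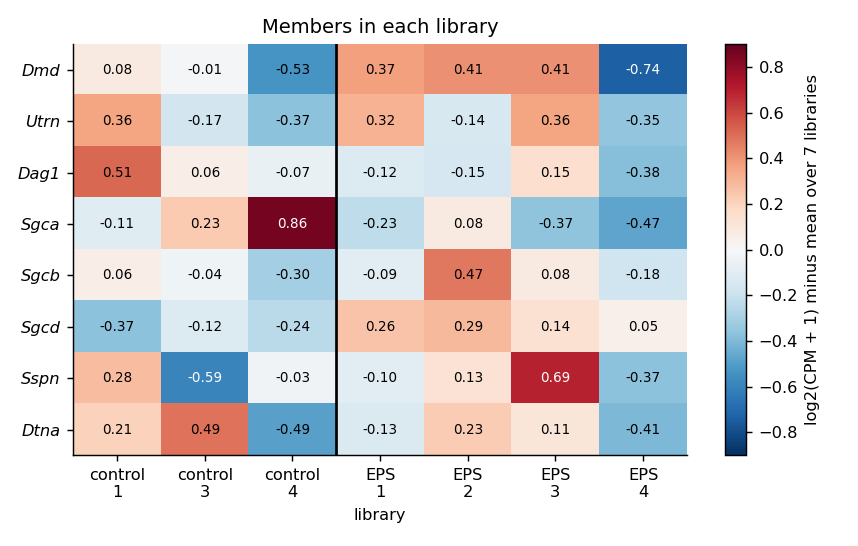
Log2(CPM + 1) of each member (rows) in each library (columns) minus its mean over the 7 libraries, with red above and blue below the mean and the black line between control and EPS. Only the row of Sgcd has a single color on each side of the line, with -0.37 to -0.12 in the control and 0.047 to 0.29 in the EPS libraries.

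For each member the 3 most similar genes were taken by Pearson correlation of log2(CPM + 1) over the 7 libraries among 10461 genes with a mean of at least 5 CPM. These values are descriptions over libraries that share the groups. Dmd was most like Mysm1, Sync and Fam63b (r from 0.975 to 0.985), of which Sync encodes an intermediate filament protein. Utrn was most like 4931406P16Rik, Wdfy3 and Rufy1 (0.977 to 0.990), and Dag1 most like Zfp568, Galnt6 and Zfp84 (0.983 to 0.988). Sgca was most like Cebpd, Loxl1 and 8430408G22Rik (0.991 to 0.996), Sgcb most like Idua, Zfp174 and Arhgef25 (0.962 to 0.976), and Sgcd most like Hnrpll, Gm962 and Chn2 (0.967 to 0.973). Sspn was most like Kif7, Mapt and Eif2c4 (0.959 to 0.978), and Dtna most like Zfp9, Usp54 and Acvr2a (0.985 to 0.991). The top genes of the 8 members did not coincide.

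Other subunits and partners of the complex were described from a list of 14 genes, of which 13 were tested and 11 had a mean of at least 1 CPM. In limma 0 of the 13 had an adjusted p under 0.05, 0 had an unadjusted P under 0.05, and the median log2 fold change was -0.015. By unadjusted P there was 1 in edgeR, Cav3, against 11.6% of all genes, and 0 in DESeq2, against 10.6%, with 0 after adjustment in either. Synm, which encodes the intermediate filament protein synemin, had the highest log2 fold change, 0.30 (adjusted p = 0.718 from limma), and Cav3, which encodes the muscle caveolin, had the lowest, -0.42 (adjusted p = 0.627 from limma). Without control replicate 4 Cav3 was at -0.17, and without control replicate 1 it was at -0.65, while without control replicate 3 Synm was at 0.14. Sgcz had 0 reads in every library, which allows a level of up to 0.181 CPM in the shallowest library, counting error only.

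**Figure D4:**
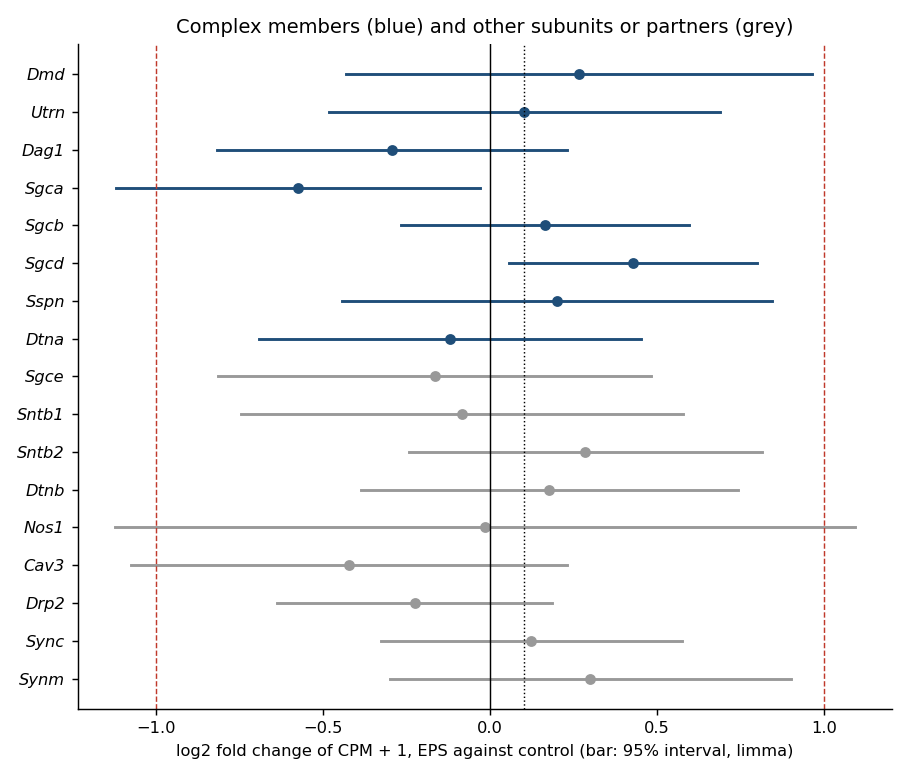
Log2 fold change of CPM + 1, EPS against control, with the 95% interval from limma (horizontal axis) for the 8 members (blue) and for other subunits and partners with a mean of at least 1 CPM (grey). The dotted line marks the median of genes with a mean of at least 1 CPM, 0.10, and the dashed lines mark 2-fold. The intervals of Sgcd and Sgca alone exclude 0, on opposite sides.

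Alpha-dystroglycan binds laminin only after O-mannosyl sugars have been built on it, and 16 genes of that pathway were tested. In limma 0 had an adjusted p or an unadjusted P under 0.05, with a median log2 fold change of 0.0059. The extremes were B3galnt2, which adds N-acetylgalactosamine to this glycan, at 0.40 (adjusted p = 0.588 from limma), and Dolk, which makes dolichol phosphate, at -0.36 (adjusted p = 0.597 from limma). Both rested on control replicate 4, without which B3galnt2 was at 0.15 and Dolk at -0.095. By unadjusted P there was 1 of the 16 in edgeR, Dolk, where all genes gave 11.6%. In DESeq2, where all genes gave 10.6%, there was 1, Large, whose enzyme builds the laminin-binding polymer. After adjustment there was 0 in either. Of the 12 dystroglycan ligands and their laminin chains, 0 had an adjusted p or an unadjusted P under 0.05 in limma, edgeR or DESeq2, and the median log2 fold change was 0.066. Their extremes were Lama1, the laminin alpha-1 chain, at 0.30 (adjusted p = 0.758 from limma), and Hspg2, which encodes perlecan, at -0.22 (adjusted p = 0.869 from limma). Lama1 was at 0.096 without control replicate 4 and at 0.53 without control replicate 1. Hspg2 was at 0.030 without control replicate 1 and at -0.47 without EPS replicate 3.

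Of 16 genes of the costamere and the cytoskeletal anchors, 0 had an adjusted p under 0.05 in limma, 1 had an unadjusted P under 0.05, against 11.6% of all genes, and the median log2 fold change was -0.25, with 4 genes above and 12 below 0. That gene was Itgb1bp2, which encodes melusin, a muscle protein that binds the tail of integrin beta-1. It was at 96.1, 98.1 and 125 CPM in control replicates 1, 3 and 4, and at 52.9, 62.4, 47.9 and 55.3 CPM in EPS replicates 1 to 4. All EPS libraries were below all control libraries, as in 2.85% of all genes. For Itgb1bp2 the log2 fold change was -0.95 (SE 0.16), and the adjusted p from limma was 0.0712. It was 0.00675 in edgeR and 9.97e-06 in DESeq2, where Itgb1bp2 was the 1 gene of the list under 0.05, and over all alternatives it ran from 9.97e-06 to 0.5003, the latter with a replicate block, which also leaves out EPS replicate 2. Without that library and with no block it was 0.200, and with each library left out in turn it ran from 0.143 to 0.241. In limma the adjusted p was under 0.05 with a pseudocount of 0.1 (0.0425) and at a mean of at least 1 CPM (0.0342). The same held after median-of-ratios scaling (0.0489) and with the length correction (0.0115). The log2 fold change of Itgb1bp2 stayed between -1.12 and -0.83 in all alternatives. At an unadjusted P under 0.05 there were 4 genes of the list in edgeR, against 11.6% of all genes, and 5 in DESeq2, against 10.6%. The highest log2 fold change of the list was 0.72 in Krt19, a keratin known to bind the actin-binding end of dystrophin (adjusted p = 0.459 from limma), and it was 0.29 without control replicate 1.

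Marker genes were read in the same libraries. All 12 myotube markers were present, at a summed level between 16922 and 20473 CPM in the control and between 13097 and 19651 CPM in the EPS group, which is the cell type the labels give. Of these, 1 passed P under 0.01 and 2-fold, the fast myosin gene Myh4, which was lower in the EPS group (log2 fold change -2.48, adjusted p = 0.108 from limma). Tnni2, a fast troponin gene, had the highest log2 fold change, 0.26, which was 0.16 without EPS replicate 1 and 0.37 without EPS replicate 3. The median was -0.37, with 9 markers below and 3 above 0. At an unadjusted P under 0.05 in limma, 2 were lower, against 3.21% of all genes, and 0 were higher. Besides Myh4 this was Actn2, an actinin of the Z-disc, at -0.99 on the log2 scale (adjusted p = 0.177 from limma), and the EPS libraries lay below all control libraries in both, as in 2.85% of all genes. By unadjusted P there were 4 myotube markers in edgeR, against 11.6% of all genes, and 4 in DESeq2, against 10.6%. Both tools added Myog and Ckm, at log2 fold changes of -1.07 and -0.63 in limma. Control replicate 4 was the highest library for both genes. After adjustment 0 myotube markers had a p under 0.05 in limma, 2 had in edgeR and 3 in DESeq2. The shares of all genes were 0.141%, 1.51% and 2.6%. The 8 markers of undifferentiated or cycling myoblasts summed to between 288 and 348 CPM in the control and between 364 and 944 CPM in the EPS group. The sums did not overlap, and most of each came from Mki67 and Top2a. How often sums over other genes separate was not measured. In limma, 4 of the 8 markers were higher at an unadjusted P under 0.05, against 8.4% of all genes, and 2 were lower, against 3.21%. The 4 were all genes of dividing cells. Pax7, at a log2 fold change of -0.12, and Myf5, at 0.20, were not under this P. The extremes were Ccnb1 at 1.38 and Id1 at -1.09, which was -0.65 without control replicate 4. After adjustment there were 0 of the 8 in limma, 2 in edgeR and 2 in DESeq2, against 0.141%, 1.51% and 2.6% of all genes. Whether these marker differences, in myotube or cycling cell genes, have a part in the values of Sgcd or Sgca was not tested. The 6 fibroblast markers summed to between 1773 and 3944 CPM in the control and between 1858 and 2865 CPM in the EPS group. Nearly all of this came from the collagen genes Col1a1 and Col1a2, while Thy1 was at no more than 0.0974 CPM. At an unadjusted P under 0.05 there were 2 of them in limma, against 11.6% of all genes, Pdgfra at a log2 fold change of 0.70 and Lum at -0.89, and 3 each in edgeR and DESeq2, which added Dcn, at -0.89 in limma. All EPS libraries were above all control libraries in 1 marker, Pdgfra, as in 7.76% of all genes, and its log2 fold change was 0.43 without control replicate 4. After adjustment there were 0 in limma, edgeR and DESeq2, against 0.141%, 1.51% and 2.6% of all genes. The 5 smooth or cardiac muscle markers summed to between 139 and 149 CPM and between 103 and 137 CPM, nearly all from Smtn, in which the EPS libraries lay below all control libraries, as in 2.85% of all genes. Of these 5, 0 had an unadjusted P under 0.05 in limma and DESeq2 and 1, Myh11, had in edgeR, a gene above 1 CPM in control replicate 4 alone. Myh6 had the lowest log2 fold change at a mean of at least 1 CPM, -0.47, which was -0.11 without control replicate 1. Tnni3 had the highest, -0.084, which turned to 0.070 without EPS replicate 1 and to 0.028 without control replicate 4. It was -0.19 without EPS replicate 2. The 6 markers of neurons or Schwann cells summed to between 1.40 and 1.75 CPM and between 1.55 and 2.63 CPM, and Snap25 was at 0 in every library. At an unadjusted P under 0.05 there was 1 in limma, Mbp, which averaged 0.575 ± 0.297 CPM without (SD, n = 3) and 1.29 ± 0.414 CPM with EPS (SD, n = 4) and whose EPS libraries were all above the control, as in 7.76% of all genes, and 0 in edgeR and DESeq2.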

How the data were processed

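RNA-seq of 7 libraries of C2C12 myotubes was analysed. Per the submitters' processing notes and the study's methods, STAR 2.5.4b aligned the reads to GRCm38. CPM values were deposited, in which the reads of a gene are scaled to a fixed library total, without the log transformation and quantile normalization that the methods also name. The read counter, its annotation, its use of strand and its handling of multi-mapping reads are not given in the sources used here. Divided by the value of a single read, 100% of the CPM lay within 0.05 reads of a whole number, which gave the read counts.

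Groups were taken from the sample labels. log2(CPM + 1) was tested with limma 3.58.1 in R 4.3.3 (empirical Bayes with a mean-variance trend, two-sided, 3 control against 4 EPS libraries, no covariate) on the 19144 genes with a read in any library, with Benjamini-Hochberg adjustment over all of them. The fit was tested on simulated data. Alternatives were other pseudocounts, quantile normalization, a filter at a mean of 1 CPM, scaling by median ratios, edgeR 4.0.16 and DESeq2 1.42.0 on the recovered reads, a replicate block, a loess correction for transcript length and the omission of each library. Besides the 8 complex members, the text names the genes of each other list with an adjusted p under 0.05 or past P 0.01 and 2-fold in limma, its highest and lowest log2 fold changes at a mean of at least 1 CPM, and for each member the 3 genes with the highest Pearson correlation. Large, Sgcz, Myog, Tmem8c, Acta1, Actn2, Ckm, Mki67, Top2a, Pax7, Myf5, Col1a1, Col1a2, Lum, Thy1, Smtn, Myh11, Mbp and Snap25 are outside this rule. They were chosen after their values were seen. The members and lists were chosen with earlier results of these data known. Coordinates and transcript lengths are those of GENCODE M21 on GRCm38, and it is not known whether reads were counted on it. Pomgnt2 and Pomk were not analysed here. Some genes of the list of other subunits and partners enter its counts and median but are not reported here singly. The study's own comparison tables, qRT-PCR, ELISA and animal experiments were not used here.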

Additional observations from a re-analysis of the deposited data

Results flagged for a closer look

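The EPS group was examined for libraries far from the rest in 10 measures, those of the 8 members, of Itgb1bp2 and of the Utrn to Dmd ratio, and 1 stood out, where chance marks about 1 in 20. Dmd in EPS replicate 4, at 23.2 CPM, was the lowest of its group by a gap of 0.943 of the whole range, above Dixon's critical value of 0.829 for 4 samples. The same library was also lowest of the EPS group for Utrn, Dag1, Sgca, Sgcb, Sgcd, Sspn and Dtna, and a cause was not tested.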

How the results depend on the processing

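The number of members with an adjusted p under 0.05 was 0 in all alternatives run, and 2 in limma and 1 each in edgeR and DESeq2 had an unadjusted P under 0.05. The direction of Dmd, Dag1, Sgca, Sgcb and Sgcd held in all of them. Utrn turned to -0.011 with median-of-ratios scaling and to -0.0054 in DESeq2. With each library left out in turn, Utrn ran from -0.052 to 0.31, Sspn from -0.038 to 0.40 and Dtna from -0.40 to 0.089. The number of members at the smallest permutation p was 1 with all libraries and 1 to 2 with 1 library left out, where that p is 0.0667 or 0.1 and cannot pass 0.05. The Utrn to Dmd difference of -0.17 ran from -0.33 to -0.0040 without 1 library.
Over all genes, 269 passed P under 0.01 and 2-fold, against 601 with a pseudocount of 0.1, 629 in edgeR, 585 in DESeq2, and 185 to 245 without 1 library. Genes with an adjusted p under 0.05 numbered 27, against 106 with a pseudocount of 0.1, 121 with a mean of at least 1 CPM, 17 after quantile normalization, 290.0 in edgeR, 497 in DESeq2, 97 with the length correction, and 0 to 12 without 1 library.
With the replicate number as a block over replicates 1, 3 and 4, 160.0 genes passed P under 0.01 and 2-fold and 0 had an adjusted p under 0.05, at 1624 with an unadjusted P under 0.05. The block leaves out EPS replicate 2, which has no control of its number. With the block the unadjusted P of Sgcd, at 0.39, was 0.0932 and that of Sgca, at -0.68, was 0.0684, both over 0.05. Same-numbered libraries deviated from their group means with Pearson correlations across genes of 0.245, -0.447 and 0.0679 for numbers 1, 3 and 4, so not every pair was over 0.1 and the libraries were not treated as paired, and the sources do not state what a number stands for. Control replicate 1 correlated best with EPS replicate 3, control replicate 3 with EPS replicate 2, and control replicate 4 with its own number. These are correlations across genes within the same libraries, given without a p. The share of higher genes among those past both thresholds was 68.8% without further scaling, 51.6% with quantile normalization, 52.8% after median-of-ratios scaling, 52.3% in edgeR, 54.2% in DESeq2 and 49.5% with the length correction. The causes of these shifts were not tested. Members had at least 293 reads in each library, and counting error, at most 5.84%, was below the SD of every member within each group.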
